A study of Mus musculus with 6 samples.

Results

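The genes described here are 40 genes of DNA replication and cell division, measured in mouse mesenchymal stem cells that were exposed to terahertz radiation or kept as controls. They were taken from a list of names matched exactly to probe sets that carry a single gene symbol, and 39 of the 40 were measured among 18193 genes in all. The gene without such a probe set was Ccnb1, which encodes cyclin B1. Where a gene had several probe sets, the one brightest on average across the 6 arrays stands for it. By their known roles 17 measured members act in the G1/S step and in DNA replication, and 22 act in mitosis. A probe set is the group of array probes that reads 1 transcript, and all values are log2 expression as deposited, so a difference of 1 is a 2-fold change.

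The irradiated group held 3 cultures that received 12 h of broadband terahertz pulses centred near 10 THz, at 1 mW/cm2 on average and 1 kHz. The control group held 3 cultures, each kept beside an irradiated culture in the same experiment without radiation. All 6 cultures were kept at 26 to 27 °C in a medium for fat cell formation with rosiglitazone at 1 µM, insulin at 5 µg/ml, IBMX at 100 µM and dexamethasone at 1 µM, added again 48 h before irradiation, and RNA was taken as soon as the exposure ended. The arrays thus form 3 pairs, 1 from each separate experiment, and the cultures of an experiment were brought to the same point of differentiation before exposure. The cells were bought as mouse mesenchymal stem cells, and the labels name neither the strain nor the age of the animals.

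Cells divide by copying their DNA in S phase and then separating the copies in mitosis. The transcription factor E2F1 and its relatives switch on genes for DNA copying at the G1/S step, and a later wave, driven by B-MYB and FOXM1, switches on genes for the spindle, the kinetochore and cytokinesis. In fat cell cultures proliferation is followed by exit from the cell cycle as the cells fill with lipid, and transcripts of dividing cells are commonly read as a measure of how many cells still cycle. In such bulk samples fewer cycling cells and less of the transcript per cell cannot be told apart.

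No member passed the limma test, in which irradiated and control arrays were compared with the experiment as a block and p-values were adjusted by Benjamini-Hochberg over all 45037 probe sets. The smallest adjusted p among the members' chosen probe sets was 0.54, for Prc1. No probe set of any gene passed (0.00% of all tested), while 3631 had an unadjusted limma p under 0.05, and the smallest adjusted p on the arrays was 0.188. With no moderation of the variance 15 probe sets passed, and with the experiment as a random block 2 did. All values below are therefore descriptions of 3 pairs of cultures.

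The mitosis genes read lower in the irradiated cultures of experiments 1 and 3 and about level in experiment 2, while the replication genes stayed near 0 in all 3. Their mean log2 level over 22 mitosis genes was 7.06, 7.33 and 6.84 on the irradiated arrays of experiments 1, 2 and 3, against 7.25, 7.27 and 7.20 on the control arrays. The controls lay close together and the irradiated arrays spread to both sides of them, with experiment 3 lowest. Over the 17 replication genes the mean level was 8.27, 8.20 and 8.14 on the irradiated arrays, against 8.33, 8.15 and 8.07 on the control arrays. Here the irradiated and control ranges overlapped. On the mean over experiments 19 of 22 mitosis genes were lower and 2 higher, and 6 of 17 replication genes were lower and 11 higher, where 47.9% of all genes were lower and 51.1% higher.

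Counted by experiment, 19 of 22 mitosis genes were lower in irradiated cultures in experiment 1, 9 in experiment 2 and 19 in experiment 3. Among all genes the share that was lower was 49.7% in experiment 1, 45.5% in experiment 2 and 49.9% in experiment 3. In experiment 2 the mitosis genes that were higher numbered 11 of 22, where 52.3% of all genes were higher. The replication genes were lower in 10, 7 and 8 of 17 cases, shares of 58.8%, 41.2% and 47.1%, which lie near those of all genes. Median log2 differences of the mitosis genes were -0.17, 0.005 and -0.43 by experiment, while the replication genes had -0.04, 0.05 and 0.05. The medians over all genes were 0.00, 0.02 and 0.00.

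The replication median lay above the mitosis median in each experiment, by 0.13, 0.045 and 0.48. Over the 3 experiments the median was 0.04 for replication and -0.19 for mitosis, a gap of 0.22, beside 0.007 for all genes. The gap rests mostly on experiment 3: it was 0.05 without that experiment and 0.32 without experiment 2, and the mitosis median became -0.06 and -0.28. The replication median was 0.08 without experiment 1 and -0.01 without experiment 3. No test was run on these medians, because the members were chosen with results of these arrays known.

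**Figure D1:**
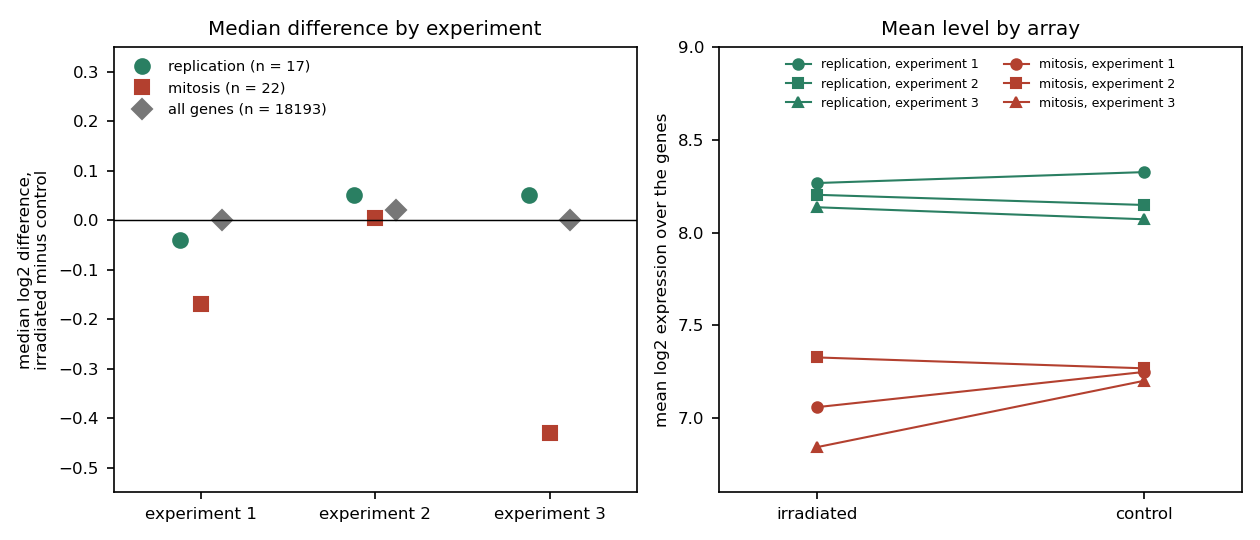
Left, median log2 difference (irradiated minus control) in each experiment over 17 replication genes, 22 mitosis genes and all 18193 genes. Right, mean log2 expression over the same replication and mitosis genes on each array, with lines joining the irradiated and control array of an experiment; the mitosis genes lie furthest below their control in experiment 3, with a median of -0.43, and are level in experiment 2, at 0.005.

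Among single genes, 4 of 39 members (10.3%) were lower at an unadjusted limma p under 0.05, where 4.61% of all genes and 6.28% of expressed ones were. They were Prc1, Bub1b and Plk1 of mitosis and E2f1 of the G1/S step. One member, Uhrf1, was higher at that level (2.56%), where 3.70% of all genes and 4.57% of expressed ones were, so that count was no larger than among genes at large. The count of lower members was 0 without experiment 1 and 0 without experiment 3, and the count of higher ones was 0 without experiment 2 and 0 without experiment 3. In all 3 experiments 7 of 22 mitosis genes (31.8%) and 3 of 17 replication genes (17.6%) were lower. Among all genes 15.1% were, and among expressed ones 18.7%. No mitosis gene and 4 replication genes were higher in all 3, where 15.7% of all genes and 18.6% of expressed ones were. The irradiated arrays lay wholly below the control arrays for 3 members, Prc1, Bub1b and E2f1 (7.69%). That share was 5.40% of all genes and 7.12% of expressed ones, so the count lay near the share of expressed genes. They lay wholly above the control arrays for Mcm2 (2.56%, against 4.56% of all genes and 5.34% of expressed ones).

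**Figure D2:**
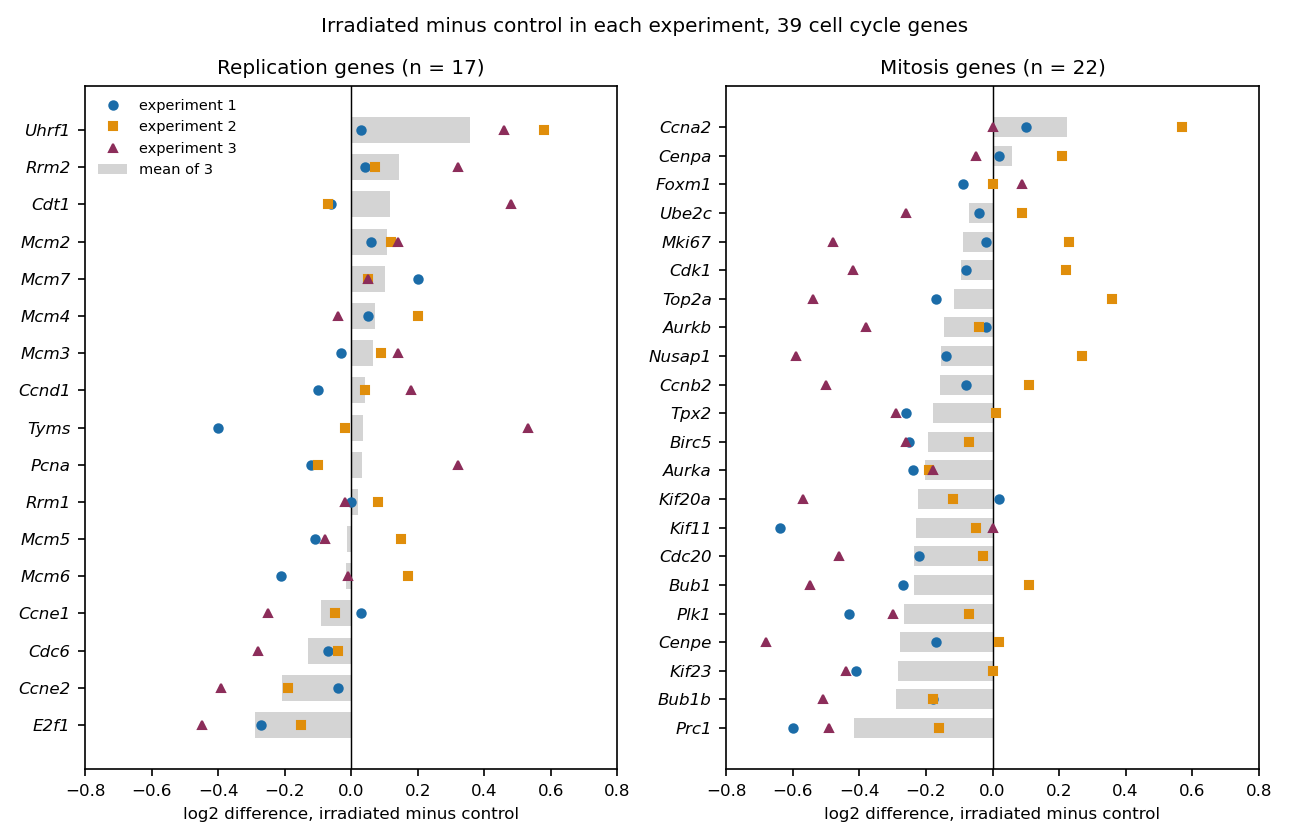
Log2 difference (irradiated minus control) of each of 39 cell cycle genes in each of 3 experiments (points) with the mean of the 3 (bar), sorted from highest to lowest mean in each group. Mitosis genes crowd left of 0 in experiments 1 and 3 with Prc1 at -0.42 lowest, and replication genes lie on both sides between -0.29 for E2f1 and 0.36 for Uhrf1.

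The promoters of the 2 groups were also searched for short runs of letters. These letters were chosen for their known link to cell cycle genes, so a contrast between the groups is no independent finding. It says nothing of a difference between irradiated and control cultures. RefSeq promoters on GRCm38.p6 (250 bases before to 50 after the start) were held for 32 of the 40 genes, and none was held for Ccnd1, Ccne2, Mcm4, Ccna2, Foxm1, Aurkb, Kif20a and Tpx2. They were searched on both strands for the cell cycle homology element CHR (the letters TTTGAA or the letters TTCGAA), the CCAAT box (CCAAT) and E2F-type sites, which were the letters TTCGCGC, the letters TTGGCGC, the letters TTCCCGC and the letters TTGGCGG. CHR letters were present in 14 of 18 mitosis promoters (77.8%) and 2 of 14 replication promoters (14.3%), beside 15.8% of 7617 genes expressed on these arrays and 21.7% of all 27025 genes with a promoter. E2F-type letters were present in 3 of 18 mitosis promoters (16.7%) and 8 of 14 replication promoters (57.1%), beside 21.5% of expressed genes and 11.6% of all. CCAAT letters were common to both, in 16 of 18 and 9 of 14, beside 42.2% of expressed genes and 41.1% of all. In the member promoters 5 CCAAT matches overlapped an E2F-type match. The nearest starts listed for E2f1, Cdc6, Mcm7 and Aurka lie 228 to 466 bases inside the annotated gene, so their windows are not the sequence before the gene. Leaving out starts over 100 bases inside a gene, a choice made after the data were seen, gave CHR letters in 13 of 17 mitosis and 1 of 11 replication promoters, beside 13.4% of expressed genes, and E2F-type letters in 3 of 17 and 6 of 11, beside 19.1%. A match is a run of letters and not a measured site.

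Promoters are printed to show these patterns, 3 of mitosis genes and 2 of replication genes, each as the 150 bases before the start with all matches in capitals. They were picked after their matches were seen, except Uhrf1, which is shown because it had the highest difference among the replication genes. Prc1 carries a CHR 30 bases before its second listed start and a CCAAT box 62 bases before it. The window of Cdk1 holds all 3 kinds of letters, and that of Mcm6 holds E2F-type letters and CCAAT boxes.
Prc1, chr7:80294326-80294475, plus strand: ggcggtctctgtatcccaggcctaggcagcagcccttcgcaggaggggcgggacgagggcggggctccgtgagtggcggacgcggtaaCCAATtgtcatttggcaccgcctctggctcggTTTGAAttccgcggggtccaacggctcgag
Cdc20, chr4:118437344-118437493, minus strand: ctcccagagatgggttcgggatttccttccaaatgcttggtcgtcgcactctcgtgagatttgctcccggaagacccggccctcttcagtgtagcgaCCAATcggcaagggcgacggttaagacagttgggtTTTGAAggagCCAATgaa
Cdk1, chr10:69352913-69353062, minus strand: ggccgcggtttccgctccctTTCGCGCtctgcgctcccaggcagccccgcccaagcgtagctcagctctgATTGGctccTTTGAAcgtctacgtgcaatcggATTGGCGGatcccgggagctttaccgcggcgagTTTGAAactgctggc
Mcm6, chr1:128359706-128359855, minus strand: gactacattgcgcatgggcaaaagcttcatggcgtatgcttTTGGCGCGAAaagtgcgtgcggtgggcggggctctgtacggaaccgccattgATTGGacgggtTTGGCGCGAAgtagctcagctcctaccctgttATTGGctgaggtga
Uhrf1, chr17:56303187-56303336, plus strand: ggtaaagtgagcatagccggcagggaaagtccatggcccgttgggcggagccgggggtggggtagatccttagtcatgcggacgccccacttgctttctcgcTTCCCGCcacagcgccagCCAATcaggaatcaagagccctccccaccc

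Of the 4 genes of the G1/S step 3 were lower on the mean. E2f1, the transcription factor that turns on replication genes, read 7.24, 7.31 and 7.20 on the irradiated arrays of experiments 1, 2 and 3, against 7.51, 7.46 and 7.65 on the control arrays. All irradiated values lay below all control values, and the log2 difference was -0.29 (95% interval -0.54 to -0.04; limma adjusted p = 0.582). A further E2f1 probe set above the level of 6 differed by -0.09, with 0.00, 0.10 and -0.36 in the 3 experiments. Ccne2, which encodes a cyclin that activates CDK2, read 6.35, 6.17 and 5.73 in irradiated cultures, against 6.39, 6.36 and 6.12 in controls. It was lower in each pair, most in experiment 3, but the groups overlapped. Its relative Ccne1 read 7.42, 7.23 and 7.34 against 7.39, 7.28 and 7.59 in controls, with a difference of -0.09 (95% interval -0.34 to 0.16). Ccnd1, whose cyclin D1 activates CDK4 and CDK6 in response to growth signals, read 11.62, 11.15 and 11.15 in irradiated cultures, against 11.72, 11.11 and 10.97 in controls. Its groups overlapped, its controls ranged over 0.75 between experiments, and its difference was 0.04 (95% interval -0.21 to 0.29). The other Ccnd1 probe sets, also above the level of 6, differed by 0.16 and 0.18. In the 3 experiments the first gave -0.03, 0.28 and 0.23 and the second 0.03, 0.22 and 0.30.

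The genes that load the replicative helicase, and the helicase itself, differed little. The 6 MCM subunits form the ring that unwinds DNA, and the log2 differences of their chosen probe sets ranged from -0.02 for Mcm6 to 0.11 for Mcm2. A further bright Mcm6 probe set lay outside that range at -0.20, with -0.20, -0.06 and -0.34 in the 3 experiments. Mcm2 read 8.03, 8.03 and 8.05 in irradiated cultures, against 7.97, 7.91 and 7.91 in controls. The values did not overlap, yet the difference of 0.11 had a 95% interval of -0.12 to 0.33. Mcm7 read 10.33, 10.11 and 10.10 in irradiated cultures, against 10.13, 10.06 and 10.05 in controls, higher in each pair with overlapping groups. Mcm5 read 8.6, 8.47 and 7.96 in irradiated cultures, against 8.71, 8.32 and 8.04 in controls, and differed by -0.01 (95% interval -0.26 to 0.23). Its control level ranged over 0.67 between experiments, more than it differed within any pair. Mcm3 and Mcm4 each differed by 0.07, and the bright probe sets of Mcm3, Mcm5 and Mcm7 disagreed in sign. Cdt1, which brings the helicase to origins, read 9.67, 9.74 and 9.99 in irradiated cultures, against 9.73, 9.81 and 9.51 in controls. Only the pair of experiment 3 stood apart among its 3 pairs, by 0.48, and a further probe set gave 0.46 there. Cdc6, its partner in loading, was dim at 4.10 in irradiated cultures and 4.23 in controls.

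Genes of the replication fork, of nucleotide supply and of DNA methylation upkeep were all higher on the mean, by 0.02 to 0.36. Uhrf1, which recruits the maintenance DNA methyltransferase to newly copied DNA, read 7.21, 7.04 and 6.93 in irradiated cultures, against 7.18, 6.46 and 6.47 in controls. It was higher by 0.58 and 0.46 in experiments 2 and 3 and by 0.03 in experiment 1, and the difference was 0.36 (95% interval 0.04 to 0.67; limma adjusted p = 0.589). The groups overlapped, since the control of experiment 1 lay among the irradiated values, and the dim second probe set of Uhrf1 gave -0.06. Rrm2, the regulated subunit of ribonucleotide reductase, read 11.15, 10.61 and 10.62 in irradiated cultures, against 11.11, 10.54 and 10.30 in controls. All 3 of its probe sets were higher in each pair, by 0.14, 0.14 and 0.18 on the mean. The large subunit gene Rrm1 differed by 0.02 (95% interval -0.21 to 0.25). Pcna, the sliding clamp of DNA polymerase, read 11.61, 11.77 and 11.88 in irradiated cultures, against 11.73, 11.87 and 11.56 in controls. It was higher in experiment 3 alone. Tyms, which makes thymidylate, was dim on all 4 of its probe sets, and the brightest read 3.01 in irradiated cultures and 2.97 in controls on the mean.

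**Figure D3:**
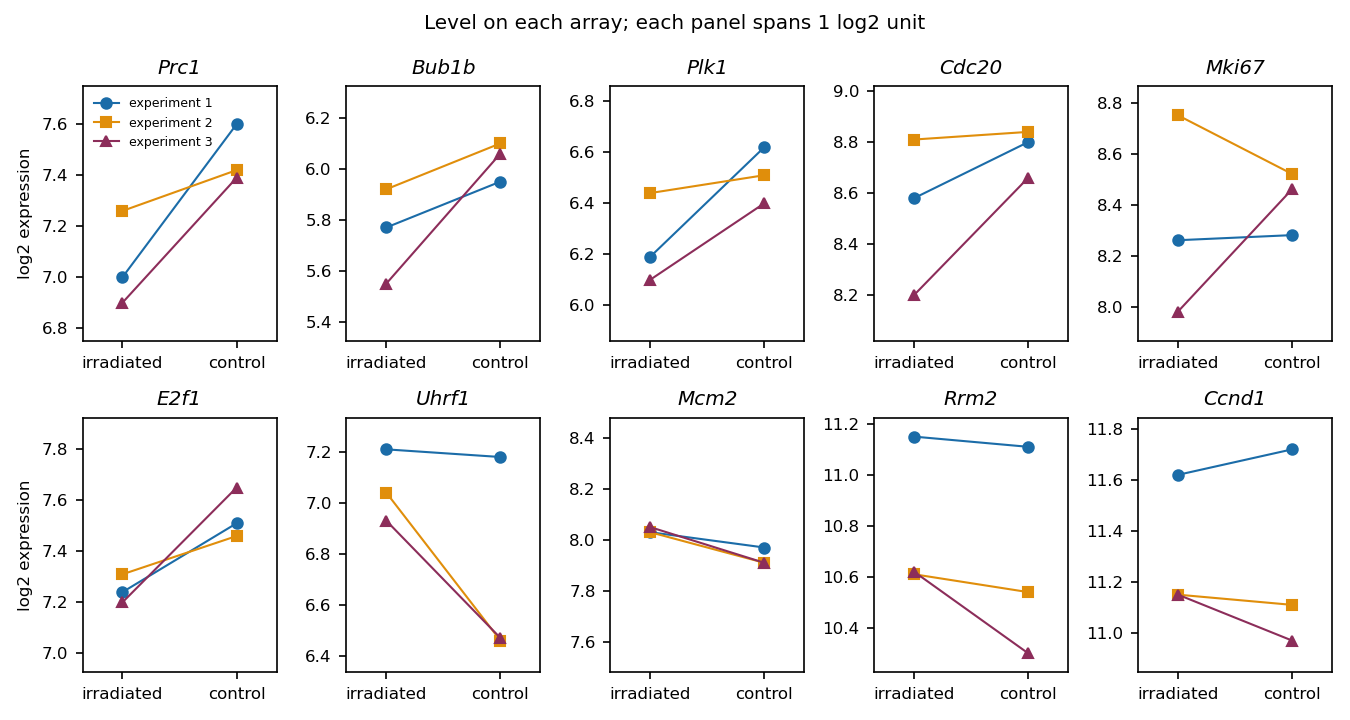
Log2 expression of 10 cell cycle genes on each array, with lines joining the irradiated (left) and control (right) array of each of 3 experiments; every panel spans 1 log2 unit. Prc1, Bub1b and E2f1 have no overlap between groups, with the irradiated values below, and Rrm2 and Ccnd1 differ more between experiments than within a pair.

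The genes of the spindle and of cytokinesis were lower on the mean in 6 of 6 cases. Prc1, which bundles microtubules in the middle of the dividing cell, read 7.0, 7.26 and 6.90 in irradiated cultures, against 7.60, 7.42 and 7.39 in controls. No irradiated value reached a control value, and Prc1 was 1.33-fold lower, with a log2 difference of -0.42 (95% interval -0.70 to -0.13; limma adjusted p = 0.54). A further Prc1 probe set read 5.75, 5.89 and 5.81 in irradiated cultures, against 6.41, 6.26 and 6.12 in controls, a difference of -0.45 ± 0.11 (SE). That set also had no overlap between groups. Kif23, the kinesin of the central spindle, read 6.57, 6.95 and 6.30 in irradiated cultures, against 6.98, 6.95 and 6.74 in controls, level in experiment 2 and lower in the other 2. Tpx2, which builds spindle microtubules and activates aurora A, read 6.75, 7.01 and 6.54 in irradiated cultures, against 7.01, 7.0 and 6.83 in controls, with the same pattern. The motor gene Kif20a differed by 0.02, -0.12 and -0.57 in the 3 experiments and the spindle protein gene Nusap1 by -0.14, 0.27 and -0.59. The other Nusap1 probe set, which was dim, went the opposite way with 0.25, 0.14 and 0.28. Kif11, whose motor pushes the spindle poles apart, was dim and differed by -0.64, -0.05 and 0.00, a pattern unlike that of the others. Of the other Kif11 probe sets, also dim, one differed by -0.25, -0.19 and -0.29 and one by 0.01, 0.05 and -0.16.

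The kinases and cyclins of mitotic entry were less uniform. Plk1, a kinase needed for spindle assembly and mitotic exit, read 6.19, 6.44 and 6.10 in irradiated cultures, against 6.62, 6.51 and 6.40 in controls. It was lower in each pair, with differences of -0.43, -0.07 and -0.30 and with overlap between the groups (log2 difference -0.27, 95% interval -0.53 to -0.004). Aurka, the aurora kinase of the centrosome, read 6.88, 6.93 and 6.68 in irradiated cultures, against 7.12, 7.12 and 6.86 in controls, and its 3 paired differences of -0.24, -0.19 and -0.18 were the most even among the mitosis genes lower in all 3 experiments. Cdk1, the kinase that drives entry into mitosis, read 8.05, 8.44 and 7.83 in irradiated cultures, against 8.13, 8.22 and 8.25 in controls. Its difference was -0.08 in experiment 1, 0.22 in experiment 2 and -0.42 in experiment 3. Ccnb2, a cyclin partner of CDK1, followed that order with -0.08, 0.11 and -0.50, while Ccna2, the cyclin of S phase and G2, differed by 0.10, 0.57 and 0.00. The other Ccna2 probe set above the level of 6 differed the other way, by -0.05. Foxm1, the transcription factor of the mitotic genes, read 6.43, 6.59 and 6.84 in irradiated cultures, against 6.52, 6.59 and 6.75 in controls. Its difference was 0.00 (95% interval -0.23 to 0.23).

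Mki67 and Top2a, the usual marker genes of cycling cells, differed in sign between experiments. Mki67 encodes Ki-67, which coats mitotic chromosomes, and read 8.26, 8.75 and 7.98 in irradiated cultures, against 8.28, 8.52 and 8.46 in controls. Top2a, whose topoisomerase untangles sister chromatids, read 7.89, 8.32 and 7.62 in irradiated cultures, against 8.06, 7.96 and 8.16 in controls. Both were highest in the irradiated culture of experiment 2 and lowest in that of experiment 3, with differences of 0.23 and -0.48 for Mki67 and 0.36 and -0.54 for Top2a. Their means of -0.09 and -0.12 had 95% intervals of -0.44 to 0.26 and -0.53 to 0.30.

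Genes of the kinetochore and the spindle checkpoint, which holds cells until all chromosomes are attached, were lower in 5 of 6 cases on the mean. Bub1b, which encodes the checkpoint protein BubR1, read 5.77, 5.92 and 5.55 in irradiated cultures, against 5.95, 6.10 and 6.06 in controls. The groups did not overlap, and the difference was -0.29 (95% interval -0.56 to -0.02; limma adjusted p = 0.6). Of the dim Bub1b probe sets one differed by -0.10, -0.09 and -0.36 and the other by -0.17, 0.47 and -0.30. The checkpoint kinase gene Bub1 differed by -0.27, 0.11 and -0.55, and Cenpe, a kinesin of the kinetochore that was dim here, by -0.17, 0.02 and -0.68. Birc5, or survivin, a subunit of the chromosomal passenger complex, read 7.83, 8.07 and 7.57 in irradiated cultures, against 8.08, 8.14 and 7.83 in controls, lower in each pair with overlap. Aurkb, the kinase of that complex, was dim and differed by -0.02, -0.04 and -0.38. Cenpa, the histone variant of centromeres, was the exception at 0.06, and its controls of 7.53, 7.88 and 8.20 differed between experiments by more than any pair.

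Both partners of the anaphase-promoting complex, the ubiquitin ligase that ends mitosis, were lower on the mean. Its activator gene Cdc20 read 8.58, 8.81 and 8.20 in irradiated cultures, against 8.80, 8.84 and 8.66 in controls. The irradiated value was lower in each pair, with differences of -0.22, -0.03 and -0.46, and the other Cdc20 probe sets above the level of 6 differed by -0.12 and -0.15. Ube2c, its ubiquitin-conjugating enzyme, differed by -0.04, 0.09 and -0.26.

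**Figure D4:**
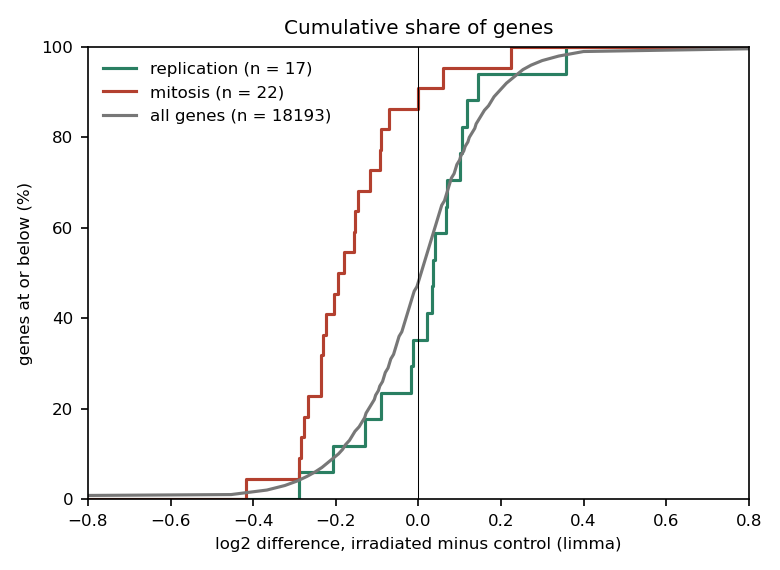
Cumulative share of genes (%) against log2 difference (irradiated minus control, limma) for 17 replication genes, 22 mitosis genes and all 18193 genes. The mitosis curve lies left of the curve of all genes, with a median of -0.19 against 0.007, and the replication curve runs close to it, with a median of 0.04.

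The members differed in how far their level moved between the experiments themselves. For each gene the range over the 3 control arrays and the mean size of its 3 paired differences were taken. The medians of these over the replication genes were 0.30 and 0.13. Over the mitosis genes they were 0.20 and 0.237, and over all genes 0.26 and 0.167. A range and a mean size are unlike measures, so each is to be read only beside its value over all genes. Among 29 members with a second probe set its mean difference had the opposite sign for 8, of which Top2a, Ccna2, Aurka, Bub1 and Nusap1 are mitosis genes and Mcm3, Mcm5 and Uhrf1 replication genes. The second probe set of Top2a, Aurka, Bub1, Nusap1 and Uhrf1 was dim. Where a gene had 2 or more probe sets at or above 6 in either group, their signs agreed for 9 of 12 replication genes and 2 of 3 mitosis genes. Prc1 is 1 of these 2 mitosis genes. Its further probe set reached 6 only in controls, at 6.26 against 5.82 in irradiated cultures, so its agreement is no independent support. The chosen probe set of 9 members, Prc1 and Cdc20 among them, is of the _s_at or _x_at kind, whose probes can also match other transcripts.

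Other genes of the cell cycle, 110 listed by role and 107 measured, were lower in 73 cases and higher in 34. Of 28 further spindle, cytokinesis and condensin genes 27 were lower and 1 higher, with a median of -0.12 and medians of -0.165, 0.00 and -0.29 in the 3 experiments. Among them 6 (21.4%) were lower at an unadjusted limma p under 0.05 and none was higher. The share lower at that level was 4.61% of all genes and 6.28% of expressed ones. These 6 include Pttg1, which encodes securin, at -0.29 and the condensin gene Ncapg2 at -0.32. The rest of the 6, Ncapg, Ect2, Aspm and Espl1, were dim, where 19 of the 28 genes were expressed. Of 16 further kinetochore and checkpoint genes 13 were lower and 3 higher, with a median of -0.125. Nek2, a centrosome kinase, and Incenp, the scaffold of the passenger complex, were lower at that level, with differences of -0.31 and -0.28. Of 28 further replication genes 13 were lower and 15 higher, with a median of 0.005, and 1 passed that level in each direction. The polymerase alpha subunit Pola2 was the lower one, at -0.24. None of the 107 passed the adjusted threshold.

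Other regulators of the cell cycle, of the G1 step and of later steps, went both ways. Cdkn2d, which encodes a CDK4 and CDK6 inhibitor of the INK4 family, read 7.75, 8.46 and 8.31 in irradiated cultures, against 8.14, 8.64 and 9.10 in controls, lower in each pair with a log2 difference of -0.45 ± 0.14 (SE). Cdkn2b, another INK4 inhibitor, read 10.66, 9.93 and 10.13 in irradiated cultures, against 10.40, 9.82 and 9.56 in controls, higher in each pair by 0.31 on the mean. The kinase gene Cdk6 was higher by 0.29 and Cdk2 lower by a log2 difference of -0.29, though a second Cdk2 probe set gave 0.09. Cks2, a small partner of the CDKs, differed by -0.30. Of 10 CDK inhibitor and pocket protein genes 4 were lower and 6 higher. At an unadjusted limma p under 0.05, 2 of them (20%) were lower and 1 (10%) higher. Of the lower ones Cdkn1c was dim. Of 13 further cyclin, CDK, CDC25 and WEE kinase genes 7 were lower and 6 higher. At that level 4 of these (30.8%) were lower and 1 (7.69%) higher. Among the 4 Cdc25c was dim, and Cdc25b reached 6 only in controls, at 6.11 against 5.75 in irradiated cultures. Among all genes 4.61% were lower at that level and 3.70% higher, and among expressed ones 6.28% and 4.57%. Of 12 further E2F and B-MYB factor genes 9 were lower and 3 higher, with E2f3 at 0.21 and Tfdp2 at 0.18, and none of these 12 had an unadjusted limma p under 0.05.

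Some measures of the cultures and arrays also differed between experiments, not all in the same order as the mitosis genes. Array medians lay between 4.74 and 4.8. The spread of differences over expressed genes was 0.318 (SD) in experiment 3, against 0.205 and 0.227 in experiments 1 and 2, and the spike-in hybridisation controls of the irradiated array of experiment 3 were brighter by 0.502. Of 20 macrophage and myeloid markers 17 were lower in irradiated cultures, with medians of -0.20, 0.075 and -0.115 in the 3 experiments. Their mean log2 level lay between 10.69 and 11.36 on the irradiated arrays and between 10.90 and 11.53 on the control arrays. Summed on the linear scale they reached 77442.5 to 115709 on the irradiated arrays and 88028.6 to 128224 on the control arrays, and of these markers Cx3cr1 alone was dim. Stromal markers read 9.25 to 9.45 in irradiated cultures and 9.22 to 9.41 in controls with Thy1 dim. Their median differences were 0.07, 0.04 and 0.01 in the 3 experiments. Fat cell markers read 11.79 to 12.09 in irradiated cultures and 11.87 to 12.04 in controls, but shifted within pairs. Their median differences were 0.19, 0.01 and -0.15, with all 7 higher in experiment 1 and 6 of 7 lower in experiment 3. All 6 endothelial and all 5 measured lymphoid markers were dim, as were 4 of 5 epithelial ones. Even so, the endothelial medians were -0.195, 0.115 and -0.125 in the 3 experiments and the lymphoid ones -0.19, 0.11 and -0.07. Both sets, like the mitosis genes, were thus lower in experiments 1 and 3 only. The epithelial medians were -0.11, -0.06 and -0.05. The part of other cell types and of array brightness in the mitosis gene result was not tested.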

How the data were processed

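Each of 6 Affymetrix mouse arrays gave 1 deposited log2 value per probe set. The submitters' processing notes name RMA, affy and limma, with no versions. Biotin-labelled cRNA came from 200 ng RNA, as the labels' protocols state.

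The 64 array controls were left out, which leaves 45037 probe sets. Of these 34945 carry 1 gene symbol, 932 several and 9160 are unnamed here. A gene was called expressed, and otherwise dim, if its mean reached 6 in either group, as 9302 genes and 34 of 39 members did. The comparison used limma 3.58.1 under R 4.3.3 (lmFit, eBayes, two-sided, Benjamini-Hochberg at 0.05), with the experiment as a block; the step was tested on simulated data. The pairing comes from the design text. Deviations from the group means correlated across expressed genes at 0.787, 0.028 and 0.324 within the 3 pairs. The irradiated array of experiment 2 correlated better with the control array of experiment 3, at 0.552, than with its own. That value was also above the 0.324 within experiment 3. These correlations thus do not bear out the pairing of experiment 2, which rests on the design text alone. P-values and intervals combine the spread of a probe set between these 3 experiments with a prior variance drawn from all probe sets. The experiments gave 2 degrees of freedom and the prior 4.52, so they do not measure the spread of 1 gene alone. Figures were drawn with matplotlib 3.10.9.

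The members and the gene lists were chosen with earlier results of these data known. Values on every array are given for up to 8 expressed members per group with the smallest p and a fixed set of marker genes, and of each other list up to 3 genes with the smallest p were candidates for naming. The comparison was repeated without the block, with it as a random effect, and with each experiment or all dim probe sets left out. Further repeats used array weights, quantile normalization, centring on the median, a robust prior with an intensity trend, an unmoderated paired statistic, other choices of probe set and a split without Ccnd1, Ccna2, Top2a and Mki67.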

Additional observations from a re-analysis of the deposited data

Results flagged for a closer look

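The hybridisation controls, spiked-in transcripts that enter no comparison above, averaged 11.73 on the irradiated array of experiment 3 and 11.23 on its control array, a difference of 0.502 over 18 probe sets. The difference was 0.081 in experiment 1 and -0.034 in experiment 2. Experiment 3 is also the one with the lowest mitosis gene median.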

How the results depend on the processing

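Over all alternatives the lowest adjusted p of a member was 0.27, for Prc1 with dim probe sets left out. The count of called probe sets was 2 with the replicate block as a random effect, 15 with the ordinary paired statistic and 0 elsewhere, no replicate block included. Members lower at an unadjusted p under 0.05 numbered 4, with no replicate block 3, and between 0 and 5 with an experiment left out. They numbered 6 with array weights and 1 with the ordinary statistic. That 1 gene was Aurka, which is not among the 4. With the ordinary statistic the 1 higher member was Mcm2, and Uhrf1 did not pass. The single higher member was 0 with no replicate block, with a random block, with array weights, with the mean of all probe sets and with the second brightest probe set, and between 0 and 1 with an experiment left out. The second brightest probe set turned the sign of 8 of 29 members: Uhrf1 (-0.063), Mcm3 (-0.05), Mcm5 (0.14), Top2a (0.16), Ccna2 (-0.05), Aurka (0.05), Bub1 (0.003) and Nusap1 (0.22). It also turned Cdk2 (0.09), Lin9 (0.02) and Prim2 (0.03) among 14 other named genes, and the cause was not tested. The mitosis median lay between -0.28 and -0.06 and the replication median between -0.01 and 0.08 over all alternatives, and the gap between them was above 0 in all of them, from 0.05 to 0.32. The split without Ccnd1, Ccna2, Top2a and Mki67 gave a gap of 0.24. The medians were the same by construction without the replicate block and with it as a random effect. The same holds for the robust prior with an intensity trend and for the ordinary paired statistic. These repeats therefore say nothing of how firm the gap is. Dim members (5 of 39) and 3 pairs of arrays limit the precision.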
